A study of Mus musculus with 4 samples.

Results

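Sites of C-to-U conversion in cortex were listed by a method that aims at cytosines next to N6-methyladenosine (m6A). A set of 9 genes that are imprinted in the mouse brain, or annotated within an imprinted locus, was examined for such sites. The genes were Gnas, Gm20721, Peg3, Ndn, Snrpn, Snurf, Impact, Nnat and Zdbf2. Their sites were the entries of the site list that carried these gene symbols. Of 28412 sites under 4206 symbols, 53 belonged to these genes, and 7 of the 9 genes had at least 1 site. Snurf and Zdbf2 had none. Of 21924 annotated protein-coding genes, 17.6% had a listed site, and the 9 genes were picked by name rather than at random, so their count is a description of these genes.

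The sites came from scDART-seq, in which the cytidine deaminase APOBEC1 is joined to an m6A-binding YTH domain, so that cytosines beside m6A are deaminated and read as T. The 4 libraries were sublibraries of 1 pool of dissociated cortical cells carrying APOBEC1-YTH or APOBEC1-YTHmut, whose YTH domain is mutated, and the pool combined replicates 1 and 2. All mice were given tamoxifen at 20 mg/kg every 24 h for 5 days, starting at 6 to 8 weeks of age, and cortex was collected 7 days after the last dose. There was 1 site list for the whole series, with no samples, genotypes, cell types or alleles in it. There were thus no replicates, no comparison between groups and no measure of which parental copy was edited. The list does not separate APOBEC1-YTH from APOBEC1-YTHmut cells, so whether each listed site depended on m6A was not tested. The lowest site count in the list was 3, so a gene without an entry may still have been edited below that level, and the expression of the genes was not measured here. Of the fixed markers of brain cells, 4 of 5 for neurons, 4 of 4 for astrocytes, 3 of 3 for oligodendrocytes, 2 of 3 for microglia and 3 of 3 for endothelium had a site, and 0 of 4 genes of other tissues did.

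An imprinted gene is transcribed mainly from the copy inherited from a single parent, because marks laid down in the germ line differ between the parental copies. Imprinted genes lie in clusters that share a control region, and many act in growth, metabolism and behaviour, with high expression in neurons. m6A is placed on adenosines of mRNA, most often in long internal exons, in last exons and around the stop codon, and proteins that bind it affect the stability, splicing and translation of the transcript.

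The sequences below show the sites on which the results turn, as 21 nt windows of the transcript centred on the edited cytosine. They were read 5′ to 3′ from GENCODE M21 transcripts, with the mm10 position of the edited cytosine after the gene name. Gnas, Gm20721 and Nnat lie on chromosome 2, and Ndn, Peg3 and Snrpn on chromosome 7. Gnas, Ndn and Nnat are on the plus strand and Gm20721, Peg3 and Snrpn on the minus strand. Capitals mark a 5 nt context in which the adenosine that can be methylated is the third letter and the edited cytosine the fourth.
Ndn 62349841, count 53: ctgatttGAACTggactgttc
Ndn 62349846, count 11: ttgaactGGACTgttctcagt
Ndn 62349883, count 27: ctttacaAAACAtgtatgcaa
Peg3 6707422, count 33: agagcctAAACCaacccataa
Peg3 6707317, count 31: agacattGAACGcagggactc
Peg3 6707631, count 29: ctacattGAACGggccagcac
Peg3 6717860, count 8: tgaacagTGACGacgacatga
Gnas 174346655, count 22: aaagcagCAACAgaaataaag
Gnas 174346443, count 10: aagagtgAAACGtaattgtac
Gnas 174328690, count 9: cgcagaaGAACGggatccccg
Gm20721 174346616, count 6: tgagaggGAACTtttgtggcc
Gm20721 174346459, count 5: gggtgacCAACTgcttgtaca
Nnat 157562020, count 10: gacattcTGACAtcaccagct
Snrpn 59983144, count 9: actgcatTAACTatagataat
Snrpn 59988612, count 4: tattgtgGAACAgcaatcatg
RAC is A or G, then A, then the edited C, and DRACH is the stricter 5 nt form that excludes C before and G after the RAC. By these names the strongest Ndn and Peg3 sites were in DRACH, and the strongest Gnas site was in RAC but outside DRACH, because a C stands before it.

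Peg3 encodes a large zinc finger protein of the Krüppel type that is made from the paternal copy. It had the most sites of the 9 genes, 17 (chromosome 7, 6703892 to 6730431, minus strand), with counts from 3 to 33, a median of 6 and a sum of 178. Only 10.0% of all symbols had as many sites or more. On the reference transcript, 12 sites lay in the 3′ UTR and 5 in the coding sequence. The 3′ UTR was 3614 nt long, and 11 of the 12 sites stood between 50 and 189 nt after the stop codon, with the remaining site, of count 5, at 740 nt.

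The counts of that Peg3 group were uneven. The highest were 33 at 84 nt and 31 at 189 nt after the stop codon, followed by 12 at 133 nt, 12 at 147 nt and 10 at 50 nt. The count of 6 was at 166 nt, and the other 5 sites had counts of 3 or 4. A further site with a count of 29 lay 125 nt before the stop codon, in codon 1531 of 1571, where C-to-U conversion would change the amino acid. It shared its GAACG context with the site of count 31, as the printed sequences show. A site of count 7 lay 3245 nt before the stop codon, also in GAACG, where conversion would change codon 491, and only a transcript annotated for nonsense-mediated decay placed it in a 3′ UTR.

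Apart from these, Peg3 had 3 sites in a short early exon. They occupied the last base of codons 15, 16 and 17, each a GAC codon, in exon 4 of 9, and had counts of 8, 5 and 4. All 3 conversions would be synonymous. The exon was 90 nt long, whereas the last exon, which held the other 14 sites, was 7840 nt long.

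Ndn encodes necdin, a neuronal protein of the MAGE family that is expressed from the paternal copy and lies in the mouse counterpart of the Prader-Willi region. It is a gene of 1 exon (chromosome 7, 62346569 to 62350262, plus strand) with 7 sites, all in its 3′ UTR. Its strongest site had a count of 53, the highest among the 9 genes, and 7.68% of symbols had a site at least that high. The next were 27, 11, 9 and 7, and the remaining 2 were 3 each, so the strongest site held 46.9% of the summed count of 113.

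The Ndn sites stood in close groups between 360 and 525 nt after the stop codon. The pair with counts 53 and 11 was 5 nt apart, at 456 and 461 nt, in GAACT followed directly by GGACT. Another pair, with counts 3 and 27, was at 493 and 498 nt, and a further pair, with counts 9 and 3, at 360 and 366 nt. The count of 7 stood alone at 525 nt. Of 29 RAC cytosines in the 877 nt 3′ UTR, 6 were listed, against 0 of 51 in the 5′ UTR and 0 of 20 in the coding sequence. Both UTRs depend on the gene model. Of the 5′ UTR, 1708 of 1839 nt and 50 of 51 RAC cytosines lie before the start of Ndn in RefSeq. Of the 29 RAC cytosines of the 3′ UTR, 13 lie outside the RefSeq span and 16 within it.

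**Figure D1:**
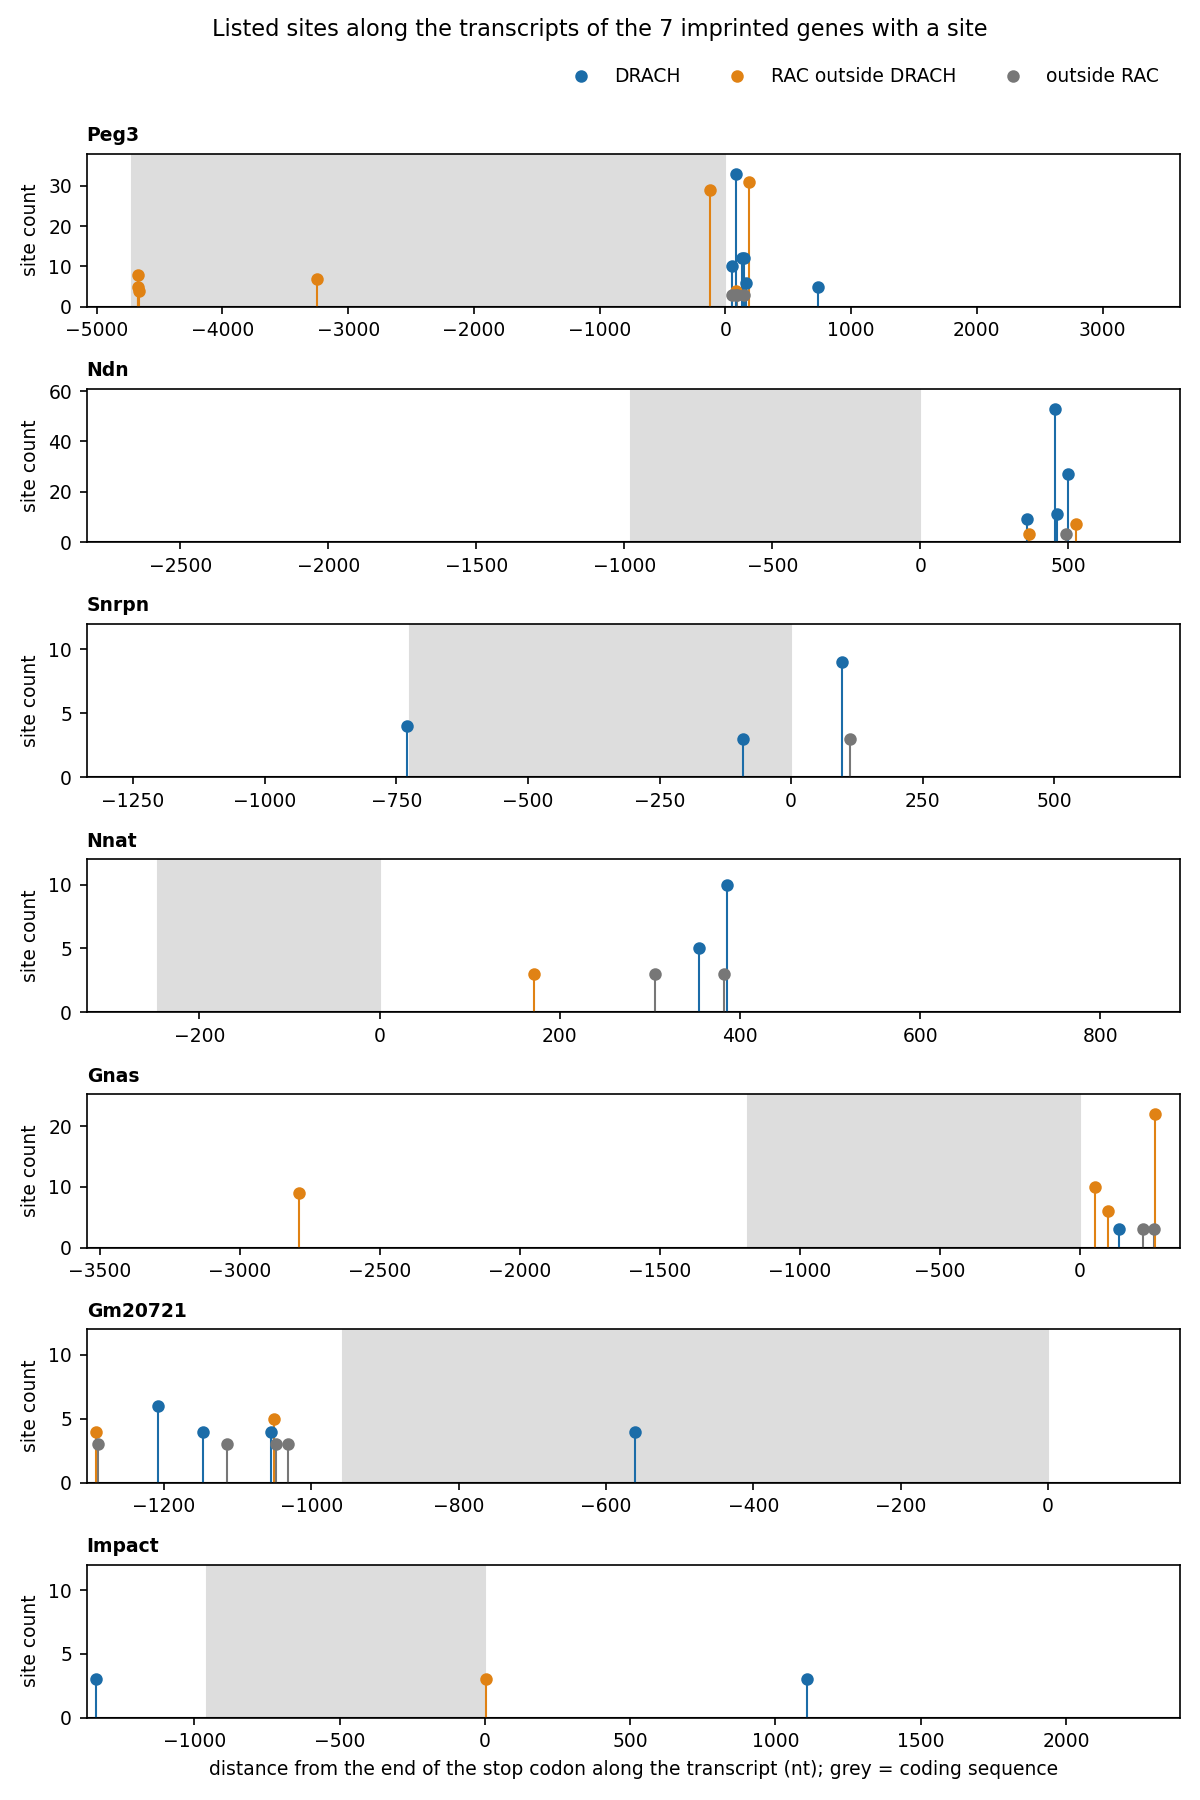
Position of each listed site (x axis, nt from the end of the stop codon on the reference transcript, coding sequence in grey) and its site count (y axis, linear and scaled by gene) in the 7 imprinted genes with a site, coloured by sequence context. Peg3 has 11 sites between 50 and 189 nt after the stop codon, and the Ndn sites lie between 360 and 525 nt.

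Gnas encodes the stimulatory G protein alpha subunit, which couples receptors to adenylyl cyclase, and its locus makes several transcripts of differing parental origin. It had 7 sites (chromosome 2, 174284320 to 174346744, plus strand) with counts from 3 to 22 and a median of 6. The last exon held 6 of them, at 55, 100, 140, 223, 264 and 267 nt after the stop codon with counts of 10, 6, 3, 3, 3 and 22. All 6 were in the 356 nt 3′ UTR, where 4 of only 6 RAC cytosines were listed. No site was listed among 49 RAC cytosines of the coding sequence on that transcript.

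The remaining Gnas site had a count of 9 and lay far upstream. It was in exon 2 of 13 on the reference transcript, an exon of 2327 nt annotated there as 5′ UTR, and no annotated transcript placed the site in coding sequence. The site also lay in the last exon of another annotated Gnas transcript, so by any transcript 7 of 7 Gnas sites were in a last exon. Its context was GAACG, as for the Peg3 sites of counts 31, 29 and 7. These were the 4 listed sites among 18 GAACG cytosines on the reference transcripts of the 7 genes with a site, or 22.2%. On longest coding transcripts, which leave out the Gnas site, 3 of 17 were listed, all in Peg3, or 17.6%, beside 8.77% over all genes with a site. That 8.77% was itself the highest listed share of any RAC context over all genes with a site.

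Gm20721 is a protein-coding gene model on the opposite strand of Gnas, and its function is not stated here. It had 10 sites (chromosome 2, 174330319 to 174346712, minus strand) with counts from 3 to 6, a median of 4 and a sum of 39. Of its 1484 exonic nt, 1469, or 99.0%, were also exon of Gnas on the other strand, and 4 of its 13 exons had the same ends as Gnas exons. Of its sites, 9 lay in its first exon, which is part of the last Gnas exon, and the other, of count 4, lay in its coding sequence at a synonymous position. The listed base of each Gm20721 site is a C on the minus strand, and so a G in Gnas RNA. The sources used here do not say how the authors' counting used strand, so reads from Gnas and Gm20721 cannot be told apart with certainty. Whether reads of Gnas RNA entered the Gm20721 counts was not tested.

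The last Gnas exon, of 503 nt, carried sites on both strands. The highest counts, 22 and 10, were on the Gnas strand, where 3 sites had the minimum count of 3. The 6 Gnas sites there summed to 47 and the 9 Gm20721 sites to 35. No Gm20721 site exceeded 6, and the Gnas sites reached 22. A Gm20721 site was 4 to 954 nt from the nearest Gnas site, with a median of 18 nt, and 3 of 10 were within 10 nt and 9 of 10 within 50 nt. All 5 RAC cytosines of the Gm20721 5′ UTR were listed, against 1 of 11 in its coding sequence and 0 of 4 in its 3′ UTR.

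The contexts of the Gm20721 sites were read on the minus strand. RAC held for 6 of 10 sites and DRACH for 4 of 10. The highest, of count 6, was in GAACT, and the next, of count 5, in CAACT. The 4 sites outside RAC were the 4 with a count of 3, and the sites outside RAC of the other genes had that count too.

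**Figure D2:**
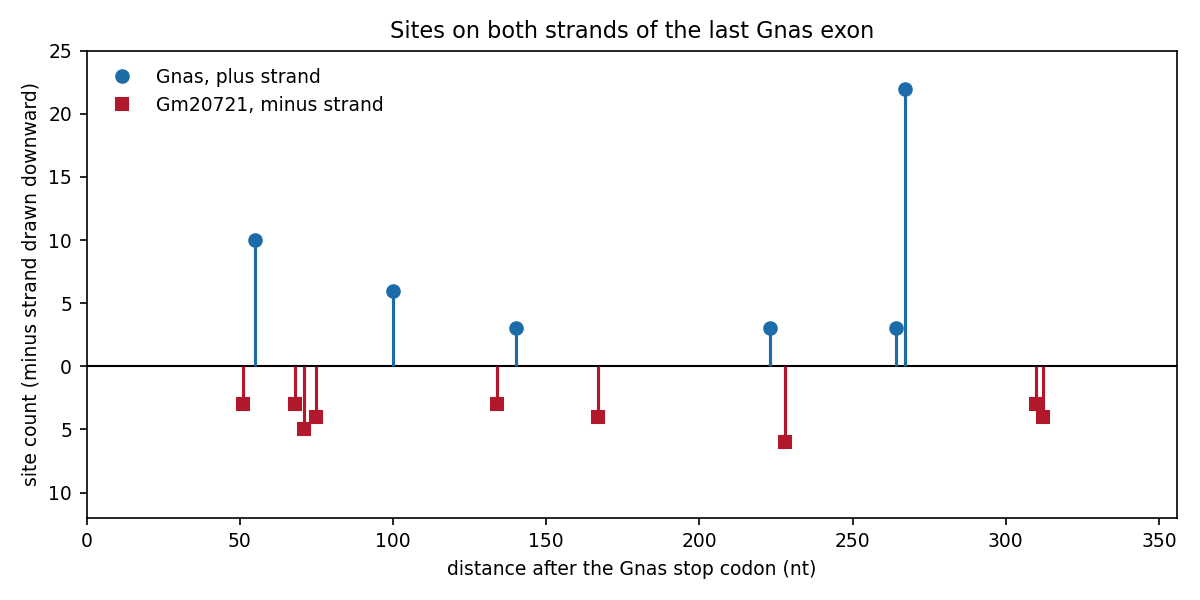
Site counts of Gnas (plus strand, drawn upward) and Gm20721 (minus strand, drawn downward) in the last Gnas exon, with the distance after the Gnas stop codon in nt on the x axis and the site count on the y axis. The 6 Gnas sites sum to 47 and the 9 Gm20721 sites to 35, and the highest count is 22 for Gnas and 6 for Gm20721.

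Snrpn and Snurf are made from the same paternal mRNA of the Prader-Willi region. Snrpn encodes SmN, a core spliceosomal protein of neurons, and Snurf is a short reading frame upstream of it. Snrpn (chromosome 7, 59982495 to 60140219, minus strand) had 4 sites with counts of 9, 4, 3 and 3. The count of 9 was 96 nt after the stop codon, in TAACT, and a count of 3 outside RAC was 112 nt after it. Another count of 3 lay 91 nt before the stop codon, in exon 10 of 11, where conversion would change codon 211.

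The Snrpn site of count 4 lay between the reading frames. On the transcript that holds both, Snurf was coded at nt 63 to 278 and Snrpn began at nt 465. The site was at nt 457, 179 nt after the end of Snurf and 8 nt before the Snrpn start codon, and its GAACA context is printed above. Snurf itself (chromosome 7, 59995449 to 60005049, minus strand) had no entry under its own symbol. Its coding sequence of 71 codons holds 10 RAC cytosines within 216 nt.

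Nnat encodes neuronatin, a small membrane protein of the endoplasmic reticulum made from the paternal copy within an intron of Blcap. It had 5 sites (chromosome 2, 157560078 to 157562522, plus strand), with counts of 10, 5, 3, 3 and 3. All lay in the 3′ UTR of 888 nt, at 386, 354, 171, 306 and 382 nt after the stop codon in that order. The strongest was in TGACA, 4 nt downstream of a site of count 3 outside RAC. Per kb of exon, Nnat had 2.73 sites and only Gm20721 among the 9 genes had more, with 6.74, followed by Ndn with 1.89 and Snrpn with 1.85. The place of Ndn rests on the GENCODE exon of 3694 nt, and over its RefSeq span of 1652 nt it had 4.24 sites per kb, above Nnat.

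Zdbf2, which encodes a protein with a DBF-type zinc finger and is made from the paternal copy, had no site (chromosome 1, 63273265 to 63314576, plus strand). Its exons span 12659 nt and hold 362 RAC cytosines, 295 of them in DRACH. That is close to the 371 RAC cytosines of Peg3, of which 3.50% were listed, against 2.82% over all genes with a site. No site under any other symbol lay within the Zdbf2 body on either strand. Whether Zdbf2 was expressed highly enough to be called was not tested.

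Set beside all listed sites, the 53 sites had a lower share in coding sequence and a higher share in 5′ UTRs, and most of the 5′ UTR sites were in Gm20721. The 3′ UTR held 35 of 53, or 66.0% (exact 95% binomial interval 51.7 to 78.5%), against 61.9% of the whole list, and the coding sequence 6 of 53, or 11.3% (4.27 to 23.0%), against 26.0%. The 5′ UTR held 12, or 22.6% (12.3 to 36.2%), against 2.0%, and 9 of those 12 were Gm20721 sites. Without Gm20721 the 3′ UTR held 35 of 43, or 81.4% (66.6 to 91.6%), and the 5′ UTR 3 of 43, or 6.98% (1.46 to 19.1%). These intervals cover counting error only, and sites of a gene share its transcripts, so they may understate the uncertainty.

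The distance from the stop codon to the 3′ UTR sites differed by gene. Within 400 nt lay 11 of 12 Peg3 sites, 6 of 6 Gnas sites, 5 of 5 Nnat sites and 2 of 2 Snrpn sites, but 2 of 7 Ndn sites and 1 of 2 Impact sites. Together these were 27 of 34 sites on the reference transcripts, 11 of them in Peg3, and the distances ran from 3 to 1109 nt with a median of 180 nt. A value over the list exists on longest coding transcripts, where 5567 of 15905 sites, or 35.0%, lay within 400 nt and the median was 676 nt. On that same basis, which leaves out the Gnas sites, 21 of 28 sites of the imprinted genes lay within 400 nt, or 75.0%, again with a median of 180 nt. The part of 3′ UTR length in these distances was not tested. The 3′ UTRs of Gnas, Ndn and Nnat were 356, 877 and 888 nt long, and the median over 2491 genes with a 3′ UTR site was 2249 nt. The 3′ UTRs of Peg3 and Impact, of 3614 and 2392 nt, were longer than that median, with 11 of 12 Peg3 sites within 189 nt and the Impact sites at 3 and 1109 nt. A last exon of some transcript held 37 of 53 sites, or 69.8% (55.7 to 81.7%), against 77.2%, and 86.0% without Gm20721, which had none there.

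Pooled over genes and on GENCODE transcripts, the proportion of available RAC cytosines that were listed was highest in 3′ UTRs. These proportions cover the 7 genes with a site and leave out Zdbf2, where 0 of 108 RAC cytosines of the 3′ UTR were listed. On the reference transcripts 24 of 219 RAC cytosines of 3′ UTRs were listed, or 10.96%. The values were 8 of 145 in 5′ UTRs, or 5.52%, and 7 of 279 in coding sequences, or 2.51%. These transcripts were picked for holding most listed sites, which raises such shares. On longest coding transcripts, which hold none of the Gnas sites, the shares of the imprinted genes were 20 of 239 in 3′ UTRs, or 8.37%, 7 of 112 in 5′ UTRs, or 6.25%, and 7 of 294 in coding sequences, or 2.38%. Over all genes with a site they were 5.44%, 1.52% and 2.41% on the same basis. Of the 8 listed in 5′ UTRs on the reference transcripts, 5 were those of Gm20721. By gene, the 5′ UTR share was the higher in Gm20721 and Impact and the 3′ UTR share in the others with a site. The pooled order also rests on the Ndn model. Outside its RefSeq span lie 50 of its 51 RAC cytosines of the 5′ UTR and 13 of 29 of the 3′ UTR. Whether the order of 3′ and 5′ UTRs holds without these was not tested.

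**Figure D3:**
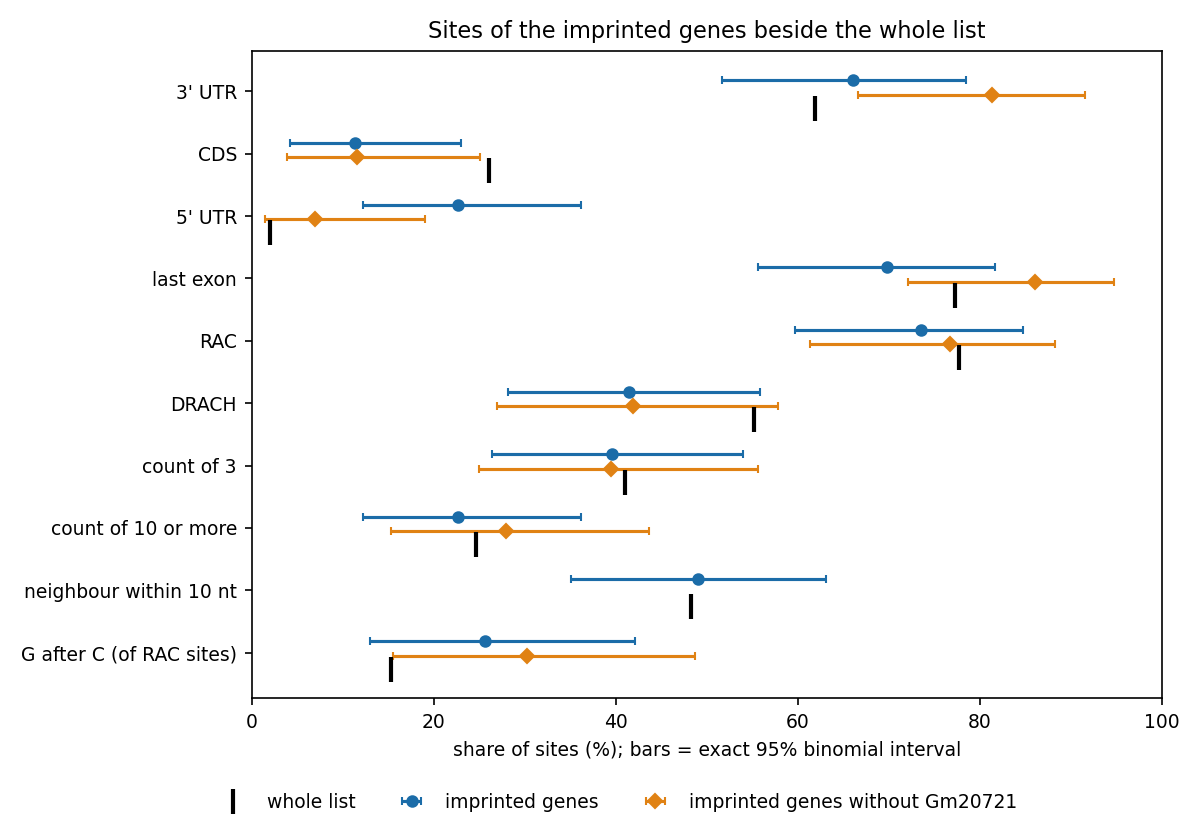
Share of sites (x axis, %) of the 9 imprinted genes (blue circles, n = 53 sites), of the same genes without Gm20721 (orange diamonds, n = 43) and of the whole list (black ticks), with exact 95% binomial intervals as bars. The 5′ UTR share falls from 22.6% to 6.98% without Gm20721, and the whole list has 2.0%; the row for neighbours within 10 nt has no value without Gm20721.

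Sequence contexts were compared with those of the list. RAC held for 39 of 53 sites, or 73.6% (59.7 to 84.7%), against 77.8% of the list, and DRACH for 22, or 41.5% (28.1 to 55.9%), against 55.2%. A G followed the edited C at 10 of 39 RAC sites, or 25.6% (13.04 to 42.1%), against 15.3%, and 5 of those 10 were in Peg3. The DRACH share of the list lies within the interval of the 53 sites. Among sites at or above the median count of 4, DRACH held for 18 of 32, or 56.3%, against 72.1% of the 16686 such sites in the list.

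The 14 sites outside RAC all had a count of 3. The share of count 3 among sites outside RAC was not computed over the list, so no difference from it is claimed. In the list too, the DRACH share was higher at or above the median count, 72.1% against 55.2% of all sites. Of the 14 sites outside RAC, 3 stood directly after a listed RAC site, or 21.4% (4.66 to 50.8%), against 7.27% of such sites in the list. All 3 were in Peg3, after sites of count 33, 10 and 4, and the first of them can be seen in the printed sequence, where the last capital C, next to the edited C of count 33, is itself the listed site. Within 10 nt of a listed RAC site lay 9 of 14, against 67.7% in the list.

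Counts over the 53 sites ran from 3 to 53 with a median of 4, equal to the median of the list. A count of 3 was found at 21 sites, or 39.6%, against 41.0%, and a count of 10 or more at 12, or 22.6%, against 24.7%. Those 12 sites were 6 in Peg3, 3 in Ndn, 2 in Gnas and 1 in Nnat, so 4 of the 7 genes with a site reached 10, where 40.1% of all symbols did. Another site of the same gene lay within 10 nt of 26 of the 53 sites, or 49.1% (35.1 to 63.2%), against 48.3%. This held for 6 of 7 Ndn sites and 11 of 17 Peg3 sites, and for no site of Snrpn or of Impact.

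Among sites in coding sequence, conversion would be synonymous at 4 of 6 and change the amino acid at 2, in Peg3 and Snrpn, and would create no stop codon. With the Peg3 site in codon 491 counted as coding, as on the reference transcript, 3 of 7 would change the amino acid. Over 7340 coding sites of the list, 48.3% were synonymous, 40.7% changed the amino acid and 11.01% created a stop codon. With 6 sites, a share of stop codons up to 45.9% lies within the exact interval.

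The order of the 9 genes by number of sites was Peg3 with 17, Gm20721 with 10, Gnas and Ndn with 7 each, Nnat with 5, Snrpn with 4, Impact with 3, and Snurf and Zdbf2 with none. Among all symbols with a site the median was 2 sites, so each of the 7 genes stood above it, and 47.4% of symbols had as many sites as Impact or more. By summed count Ndn, with 113, stood above Gm20721, with 39, although it had fewer sites.

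Other genes, taken from fixed lists of known imprinted clusters, were described by the same counts. The lists were drawn from general knowledge with earlier results on this site list known, and the imprinting of each gene in adult cortex was not tested. Of 65 genes, 22 had a site, and of the 60 that code for protein, 21 did, or 35.0%, beside the 17.6% of all protein-coding genes given above. The 17.6% includes genes whatever their expression in cortex, and the lists were not matched to it, so enrichment was not tested. In the Prader-Willi and Angelman list 2 of 6 genes had sites, Snhg14, the long host transcript of small nucleolar RNAs that runs opposite Ube3a, with 55 sites of counts up to 134, and Ube3a, a ubiquitin ligase made from the maternal copy in neurons, with 12 sites of counts up to 8. No gene of the Peg3 list of 5 had a site, nor had Nespas, the only entry of the Gnas list. Blcap, the host of Nnat, had 3 sites of counts up to 8, and Adam23, a neighbour of Zdbf2, had 30 of counts up to 35.

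The Peg10 and Mest list had sites in 4 of 11 genes, led by Ppp1r9a, which encodes an actin-binding protein of synapses, with 29, Casd1 with 4 and Mest with 2. The list of distal chromosome 7 had 3 of 14, which were Cd81 and Inpp5f with 2 sites each and Ano1 with 1, and that of chromosome 12 had Rtl1 and Begain with 1 each. Of the 19 others, 9 had sites, led by Ntm with 55, Nap1l5 with 43, and Cobl and Rasgrf1 with 6 each. Nap1l5 reached a count of 168, above the 53 of Ndn, which was the highest of the 9 genes.

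**Figure D4:**
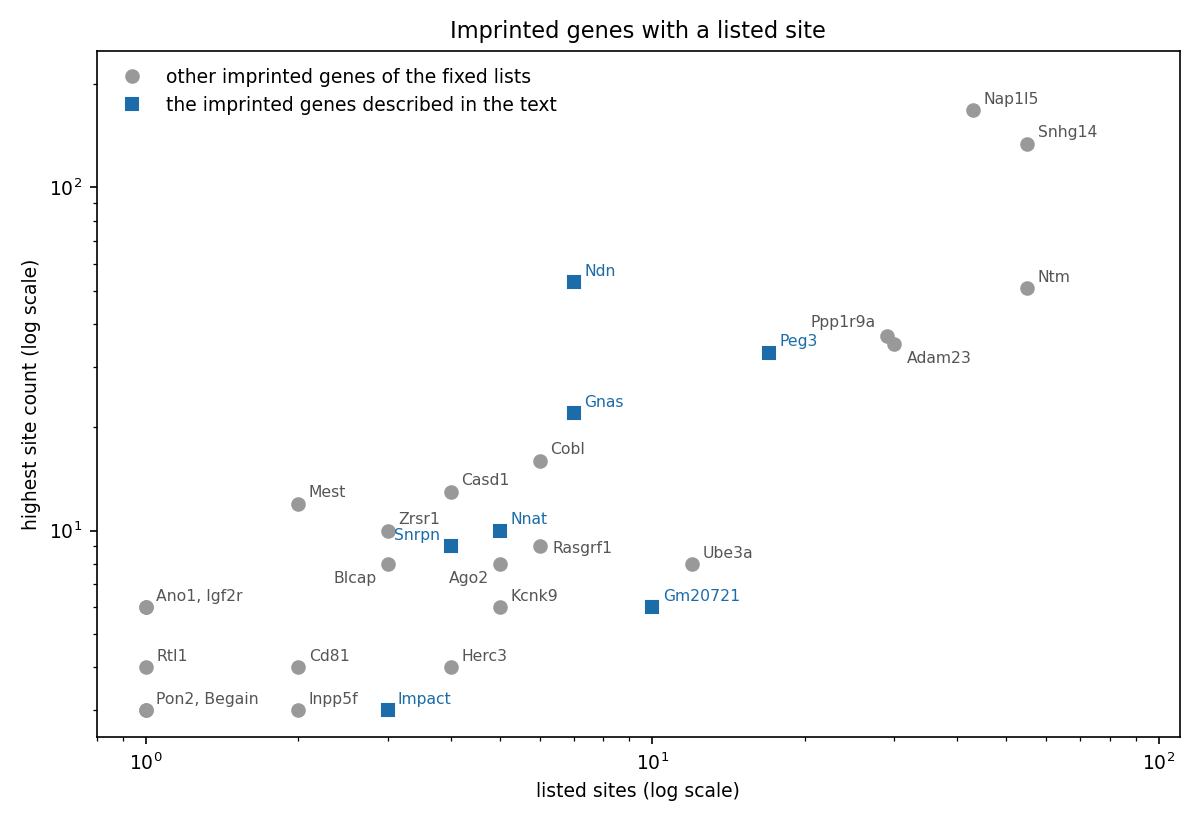
Number of listed sites (x axis, log scale) and highest site count (y axis, log scale) of each gene of the set and of the fixed lists that had a site. Blue squares are the genes described here and grey circles the other genes of the fixed lists, and Ndn reaches a count of 53 with 7 sites while Nap1l5 reaches 168 with 43.

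Impact, which encodes an RWD-domain protein that holds back the activation of the stress kinase GCN2 and is made from the paternal copy in mouse, had the fewest sites of the 7 genes. It had 3 sites, each with a count of 3 (chromosome 18, 12955852 to 12992950, plus strand). The first lay in the 5′ UTR at 12971954, and the others lay in the 3′ UTR at 3 and 1109 nt after the stop codon. All 3 were in RAC and 2 in DRACH. Of its 127 exonic RAC cytosines 2.36% were listed, near the 2.82% over all genes with a site.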

How the data were processed

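The authors deposited 1 list of single-base sites, each with a strand, a symbol and a raw whole-number count, here the site count. Without a header, the sources used here do not give what is counted. Reads were aligned with STAR 2.7.5 to mm10 per the submitters' processing notes, and sites were found with Bullseye per the series text. The sources used here do not give filters or read depth. The 4 samples form 1 group.

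Sites were placed on GENCODE M21 transcripts (mm10 coordinates, given 1-based), by symbol and strand for 27873 sites, by an older symbol for 391 and by position for 105, and 43 had no gene. The listed base was C at 28337 of 28338 exonic sites. A site in several transcripts took the first of 3′ UTR, coding sequence, 5′ UTR, noncoding exon and intron. Distances used a reference transcript, the coding transcript holding most sites of the gene and then the longest, chosen after seeing the data. Values over all genes used the longest coding transcript. It is the reference transcript of each gene with a site except Gnas, whose longest holds none of its sites, so the genes were also computed on it, an alternative added after seeing the data. For 2000 cytosines drawn from longest coding transcripts, with the gene given, the region on that transcript was recovered at all 2000. The matching of symbols to genes and the order of regions over several transcripts were not checked in this way. Shares have exact Clopper-Pearson intervals (scipy 1.17.1, pandas 2.3.3), and with 1 list and no replicates no test was made.

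The genes and lists were chosen with earlier results of these data known. Named were all 9 genes, up to 3 of their highest sites, and up to 3 genes with most sites from each list of other imprinted genes. Further sites are given to account for all 53. Alternatives were a higher count minimum, merging of close sites, leaving out Gm20721 or Peg3, other region orders and contexts, other windows and other rankings.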

Additional observations from a re-analysis of the deposited data

How the results depend on the processing

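Of the 53 sites, 32 were at or above the median count of the list. Leaving out Gm20721 moved the 3′ UTR share from 66.0% to 81.4% and the last exon share from 69.8% to 86.0%. The DRACH share of 41.5% became 56.3% at or above the median count, 56.4% over RAC sites only and, with RAC in place of DRACH, 73.6%. The 3 Gm20721 sites with a Gnas site within 10 nt became 9 with a window of 50 nt. Ranked by sites per kb of exon in place of sites, Gm20721 went from rank 647 to 116, Gnas from 899 to 1669, Nnat from 1184 to 427, Peg3 from 392 to 961 and Snrpn from 1358 to 676. Ranked by summed count, Gm20721 went to 1123 and Ndn from 899 to 514. The coding share stayed within the interval given in the report under each alternative run, from 5.56% without Peg3 to 15.6% at or above the median count. On longest coding transcripts, added after seeing the data, the share of 3′ UTR sites within 400 nt of the stop codon was 75.0% and that of listed 3′ UTR RAC cytosines 8.37%. No paired analysis was possible because the single list pools replicates 1 and 2. Depth and expression limit what an absent site means, and strand use in the counting limits the split between Gnas and Gm20721.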

Other observations

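The site counts given to some of these genes depend on the gene models. A site listed under Gm38393 at chromosome 7, 59995535, on the minus strand, with a count of 3, lies in exon 3 of 3 of Snurf, at the first base of codon 44, where conversion would change the amino acid. It is in RAC but outside DRACH. Gm38393 is annotated as protein-coding from 59974149 to 60005064 and had 3 sites in all, of counts 3 to 9, so Snurf had no site by symbol and 1 by position. The same base lies in an exon of Snrpn, which by position would also gain it. The RefSeq table gives Snurf a span from 59982495 to 60005199, which covers all 4 sites listed under Snrpn.

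The Ndn models differ at their ends as well. RefSeq gives Ndn from 62348277 to 62349928, or 1652 nt, and GENCODE M21 gives it 3694 nt of exon. All 7 Ndn sites lie 18 to 183 nt before the RefSeq end and 352 to 517 nt before the GENCODE end. The 5 Nnat sites lie 505 to 720 nt before the RefSeq end of Nnat.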
